A study of Homo sapiens with 9 samples.

Results

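The genes described here encode respiratory complex I, the NADH:ubiquinone oxidoreductase of mitochondria, in single-cell-derived subclones of SK-MEL-5. SK-MEL-5, an established line of human melanoma cells, has a BRAF mutation. The members were the 48 protein-coding genes whose symbol begins with NDUF, of 60675 rows in the deposited count table: 37 subunits of the complex, 8 assembly factors of the NDUFAF series, NDUFA4, NDUFA4L2 and the read-through gene NDUFC2-KCTD14. RNA was sequenced from 3 clones, SC10, SC07 and SC01, with 3 libraries each, all from untreated cells. Per the labels, each clone came from a single cell of the parental line by limiting dilution without drug, and the clones were chosen by their first response to the BRAF inhibitor PLX-4720; which clone responded in which way is not stated. SC10 and SC07 were each compared with SC01, and SC10 with SC07, to ask in which of these genes the clones differ without drug. Each group is a single clone, so a clone and any batch of its culture or extraction cannot be told apart. Separate cultures for a clone's libraries are not stated, so the spread behind each p-value is that of these libraries and may be technical.

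Complex I takes electrons from NADH and passes them through a flavin and a chain of iron-sulfur clusters to ubiquinone, and couples this to proton pumping across the inner mitochondrial membrane. It has a matrix arm, which carries the flavin, the clusters and the ubiquinone site, and a membrane arm, which pumps protons. Core subunits that do this work are encoded partly in the nucleus and partly in the mitochondrial genome, and many nuclear accessory subunits surround them. Assembly factors build the modules and join them without remaining in the finished enzyme. In melanoma cells, respiratory genes are known as targets of the coactivator PGC-1alpha, which the melanocyte factor MITF can induce.

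The 9 libraries held between 30224066 and 39454087 counts each. Within a clone, counts varied beyond sampling noise in every pair of libraries (chi-square over its degrees of freedom 2.47 to 10.5, and 55.0 to 171.8 for pairs from different clones), so none repeats another. SC10 replicate 3 stood apart from replicates 1 and 2 of its clone (9.47 and 10.5, against 2.47 between those), and it gave the highest SC10 value for 35 of the 37 subunits. Of 7 melanocyte markers, 6 had counts in every clone. Their summed level was 15153 to 15372 CPM (TMM-scaled counts relative to library size) in SC10, 24353 to 24855 in SC07 and 10724 to 11382 in SC01. Most of that sum came from PMEL and DCT. TYR had the same order of clones as PMEL and DCT. TYRP1 had another order, at a mean of 702 CPM in SC10, 1212 in SC07 and 2394 in SC01. MLANA and MITF were highest in SC10, with MLANA at a mean of 1514 CPM in SC10, 1072 in SC07 and 604 in SC01. MITF averaged 549.7 CPM in SC10, 499 in SC07 and 450.1 in SC01. The remaining melanocyte marker, SOX10, was listed with 0 counts in every library. Whether it was not expressed or its reads were not counted was not tested. Of 5 fibroblast markers nearly all of the sum came from LUM (335 to 370 CPM summed in SC10, 428 to 489 in SC07 and 131 to 137 in SC01), while COL1A2 stayed at or below 0.126 CPM. The 4 keratinocyte markers summed to 21.6 to 27.2 CPM over all libraries, with KRT1 at 0, the 2 endothelial markers reached at most 0.300 CPM, and the 4 immune markers summed to 0.679 to 1.31, 3.13 to 3.79 and 0.239 to 0.467 CPM in SC10, SC07 and SC01. The part of these differences in the results below was not tested.

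Gene positions below are those of GENCODE 29 on GRCh38, levels are CPM, and log2 changes are given ± SE. Most nuclear subunits of complex I were higher in SC10 and in SC07 than in SC01, while SC10 and SC07 differed from each other in both directions. All 37 subunits were tested, as were the 8 assembly factors and NDUFA4, while NDUFA4L2, with 1 to 6 counts per library, and NDUFC2-KCTD14, with 0, fell below the filter on low counts. A gene was called where the p of edgeR's quasi-likelihood test, adjusted over 18009 genes, was below 0.05. In SC10 against SC01, 28 of the 37 subunits were higher and 1, NDUFB2, was lower, with a median log2 change of 0.38; among all genes tested 65.9% were called, 33.5% higher and 32.4% lower, and the median was -0.01. In SC07 against SC01, 33 subunits were higher and none was lower, with a median of 0.51, where 62.0% of all genes were called, 31.5% higher and 30.5% lower (median -0.01). In SC10 against SC07, 11 subunits were higher and 12 lower, with a median of 0.00, where 47.9% of all genes were called, 24.8% higher and 23.0% lower (median -0.01). Both comparisons with SC01 use the same 3 SC01 libraries, so their changes are not independent of each other. No overlap between the libraries compared was seen for 28 subunits in SC10 against SC01 (69.1% of all genes), for 32 in SC07 against SC01 (67.4%) and for 21 in SC10 against SC07 (53.4%). In bulk RNA, fewer cells of a type and less RNA per cell cannot be told apart. Over the 3 clones together, 34 subunits differed, where 76.3% of all genes did. Without SC10 replicate 3, SC10 against SC01 lost the call of NDUFB6 (adjusted p = 0.0558, edgeR) and gained NDUFS5 and NDUFA11 as lower (adjusted p = 0.00139 and 0.0262, edgeR), so that 3 subunits were lower. Without SC01 replicate 1, NDUFA7 was also lower in SC10 (adjusted p = 0.0179, edgeR), which made 2 lower subunits. Scaled by library totals alone, 23 subunits were higher and 5 lower in SC10 than in SC01, with NDUFA7, NDUFA11, NDUFB7 and NDUFS5 joining NDUFB2. Of all genes 5044 were then higher and 7094 lower, against 6028 and 5836 with TMM. Under that scaling 28 subunits were higher and none lower in SC07 than in SC01. Of all genes 4666 were then higher and 6841 lower, against 5675 and 5487 with TMM. The 9 libraries put the nuclear subunits at 0.365% to 0.408% of all counts in SC10, 0.375% to 0.385% in SC07 and 0.270% to 0.273% in SC01, so no library of SC10 or SC07 reached down to those of SC01.

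**Figure D1:**
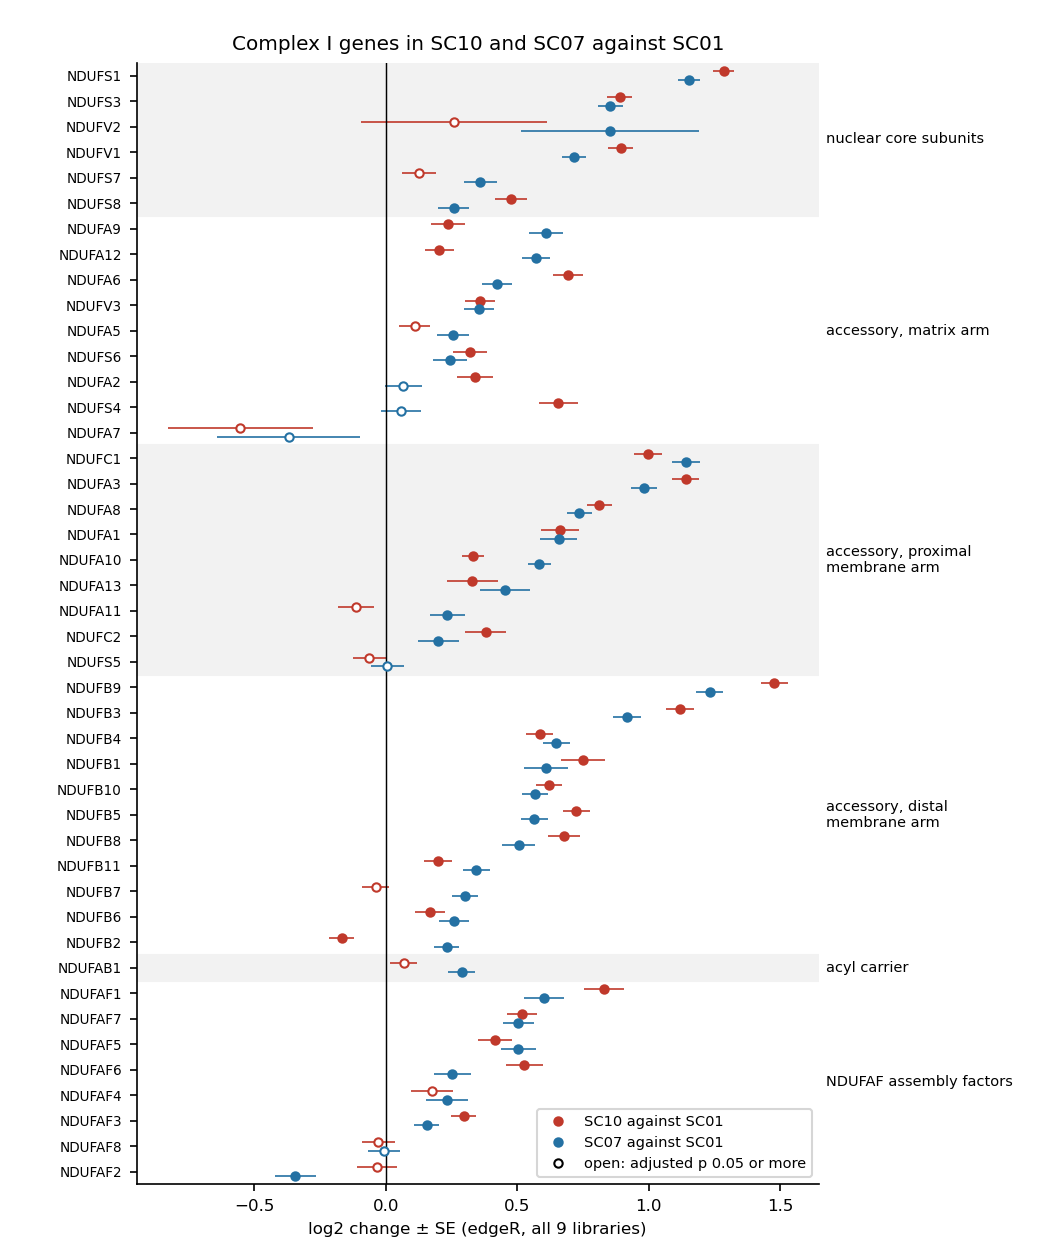
Log2 change ± SE (edgeR, all 9 libraries) of 36 nuclear subunits and 8 assembly factors of complex I in SC10 against SC01 (red) and SC07 against SC01 (blue), by part of the complex; open points have an adjusted p of 0.05 or more. Most points lie right of 0, up to 1.48 for NDUFB9 in SC10, and of the called points only NDUFB2 in SC10 and NDUFAF2 in SC07 lie to the left.

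Promoter windows are shown because most of these genes were higher in the same clones, and the letters below are those searched for. RefSeq windows (GRCh38.p14) of 250 bases before to 50 after the start were matched by symbol for 32 of the 37 subunits and 7 of the 8 assembly factors. The NRF1 motif, searched as GCGCATGCG on both strands, stood in 5 of the 32 subunits with a window (15.6%). It stood in 2.34% of all 27305 genes with a window and in 4.10% of the tested genes among them. A gene was counted once if any of its windows held the letters, and genes can have several windows. The YY1 motif, searched as AAGATGGCG, stood in 6 of the 32 (18.8%), against 2.14% and 4.35%, and in the windows of these 6, NDUFA6, NDUFA7, NDUFA9, NDUFB8, NDUFS4 and NDUFS7, it began 10 to 25 bases after the start. The ETS/GABP motif, searched as CCGGAAGT, stood in 2 (6.25%), against 4.95% and 9.15%, and the ERR motif, searched as TCAAGGTCA, in none, against 0.432% and 0.264%. The 5 subunits with the NRF1 letters had log2 changes of 0.11 to 0.81 in SC10 against SC01 and of 0.24 to 0.74 in SC07 against SC01, within the range of the other subunits. Those of the 6 with the YY1 letters were -0.55 to 0.69 and -0.37 to 0.61, lowest for NDUFA7, which was not called. For the 2 with the ETS/GABP letters they were 0.33 to 1.29 and 0.45 to 1.15. The windows below are printed 5′ to 3′ on the gene's strand, with the motif letters, or their reverse complement, in capitals. NDUFA8 (chr9:122159760-122159813, minus strand), NDUFB4 (chr3:120596147-120596216, plus strand) and NDUFAF5 (chr20:13784994-13785047, plus strand) hold the NRF1 letters on both strands, overlapping each other by all but 1 base, and NDUFA5 (chr7:123557938-123558006, minus strand), NDUFS6 (chr5:1801331-1801399, plus strand) and NDUFS7 (chr19:1383803-1383871, plus strand) on 1 strand. NDUFS1 (chr2:206159565-206159632, minus strand) and NDUFA13 (chr19:19516185-19516244, plus strand) hold the ETS/GABP letters.
NDUFA5: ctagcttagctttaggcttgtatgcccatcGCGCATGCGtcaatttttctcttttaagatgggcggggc
NDUFA8: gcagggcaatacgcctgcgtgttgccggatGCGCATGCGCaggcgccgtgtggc
NDUFB4: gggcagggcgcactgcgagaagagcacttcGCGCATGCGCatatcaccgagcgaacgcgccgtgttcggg
NDUFS6: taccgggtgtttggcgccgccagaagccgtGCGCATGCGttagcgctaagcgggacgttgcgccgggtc
NDUFS7: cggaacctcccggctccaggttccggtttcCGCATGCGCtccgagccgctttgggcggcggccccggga
NDUFAF5: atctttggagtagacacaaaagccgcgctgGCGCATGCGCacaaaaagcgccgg
NDUFS1: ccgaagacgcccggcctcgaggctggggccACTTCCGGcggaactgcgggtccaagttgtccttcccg
NDUFA13: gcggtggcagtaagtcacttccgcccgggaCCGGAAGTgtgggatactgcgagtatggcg

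Levels are compared between genes as mean CPM per kilobase of annotated exons over the 9 libraries. The highest subunits were NDUFS5 (261 CPM per kilobase), NDUFB7 (205), NDUFA1 (166), NDUFA8 (141) and NDUFB10 (127), all accessory subunits of the membrane arm. NDUFV2, a core subunit, was the lowest tested member at 0.270 CPM per kilobase and NDUFA7, an accessory subunit of the matrix arm, the next at 0.696. Both genes share most of their coding bases with another gene annotated on the same strand: 84.7% for NDUFV2 (ENSG00000178127, chromosome 18, 9102630 to 9134345, plus strand) with AP005263.1 and 78.3% for NDUFA7 (ENSG00000267855, chromosome 19, 8308768 to 8321396, minus strand) with AC010323.1. NDUFV2 held 25, 21 and 22 counts in SC10, 40, 20 and 42 in SC07 and 16, 20 and 19 in SC01, while its processed pseudogene NDUFV2P1 held 148 to 154, 124 to 168 and 85 to 121 counts. NDUFA7 held 25, 27 and 33 counts in SC10, 27, 41 and 30 in SC07 and 29, 44 and 48 in SC01. The overlapping genes themselves held few counts, with 0 for AP005263.1 and 0 to 3 for AC010323.1 per library. The 6 subunits with 50% or more of their coding bases shared in this way, namely NDUFV2, NDUFA7, NDUFA9, NDUFA13, NDUFB8 and NDUFC2, had levels of 0.270 to 14.8 CPM per kilobase (median 2.92), against 6.17 to 261 (median 34.4) for the other 31 subunits and 3.0 to 43.8 (median 11.2) for the 8 assembly factors. How the authors' counting treated reads that overlap several genes is not given in the sources used here, so levels of these 6 genes are uncertain. Exons of other members, NDUFS1, NDUFS7, NDUFA1, NDUFA3, NDUFB3, NDUFB11 and NDUFAF3 among them, overlap a gene on the opposite strand. Its reads cannot be told apart from theirs if counting ignored strand. In NDUFS7 this covers 48.5% of the coding bases. Exons of NDUFC1, NDUFS3 and NDUFB2, among others, overlap MGARP, PTPMT1 and ADCK2 on the same strand, outside their coding bases. Such shared reads cannot be told apart by strand. The part of either overlap in the differences between clones was not tested.

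**Figure D2:**
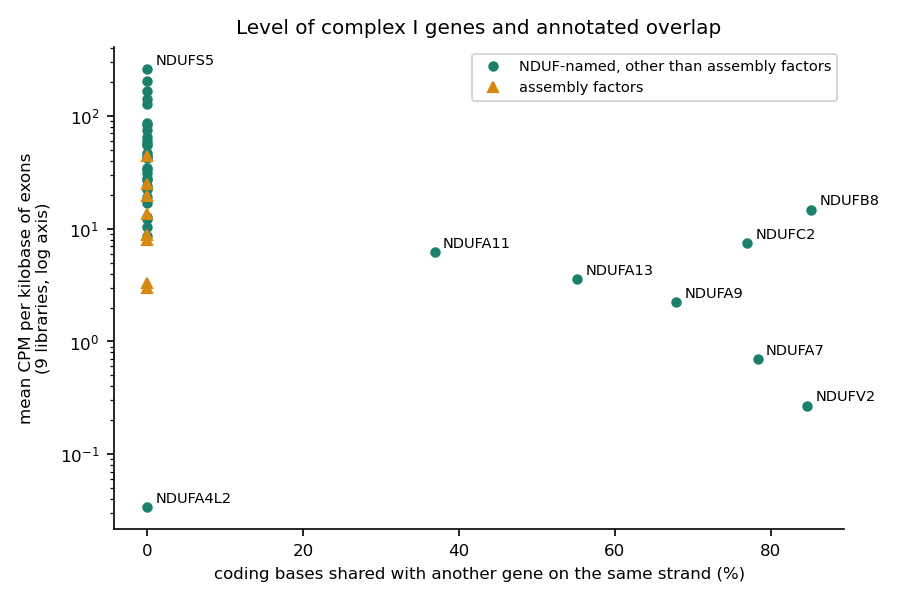
Mean CPM per kilobase of exons over 9 libraries (log axis) against the share of coding bases that another gene covers on the same strand, for NDUF-named genes (circles) and assembly factors (triangles). Genes with a share above 50%, such as NDUFV2 at 84.7% and 0.270 CPM per kilobase, lie at or below 14.8, NDUFS5 at the top reaches 261, and the untested NDUFA4L2 lies lowest.

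The 7 nuclear core subunits, which carry the flavin and the clusters, were all higher in SC07 than in SC01. In SC10 against SC01, 5 were higher and none lower (median 0.69), in SC07 against SC01 all 7 were (median 0.82), and in SC10 against SC07 3 were higher and 2 lower (median 0.04). Among all genes tested, 33.5% were higher and 32.4% lower, 31.5% and 30.5%, and 24.8% and 23.0% in these comparisons in turn. NDUFS1 (ENSG00000023228, chromosome 2, 206114817 to 206159603, minus strand), the largest subunit, which binds several iron-sulfur clusters, measured 382, 375 and 376 CPM in SC10, 347, 345 and 342 CPM in SC07 and 152, 156 and 157 CPM in SC01. No library of a clone overlapped with those of another, with SC10 highest and SC01 far below both. Its log2 change was 1.29 ± 0.04 in SC10 against SC01, 1.15 ± 0.04 in SC07 against SC01 and 0.13 ± 0.04 in SC10 against SC07 (adjusted p = 1.29e-20, 1.26e-19 and 0.00672, edgeR). NDUFV1, which binds NADH and the flavin, measured 268, 261 and 285 CPM in SC10, 245, 225 and 249 CPM in SC07 and 144, 149 and 145 CPM in SC01. Here too the 3 clones did not overlap, with SC10 highest and SC01 lowest, and the log2 changes were 0.89 ± 0.05, 0.72 ± 0.05 and 0.18 ± 0.05 in the same order of comparisons. NDUFS8, another cluster-binding subunit, measured 89.8, 82.3 and 93.0 CPM in SC10, 74.6, 70.9 and 82.5 CPM in SC07 and 60.2, 68.1 and 62.5 CPM in SC01. Both SC10 and SC07 lay above SC01, the lowest SC10 library lay just below the highest of SC07, and the changes were 0.48 ± 0.06, 0.26 ± 0.06 and 0.22 ± 0.06.

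None of the remaining core subunits was called higher in SC10 than in SC07. NDUFS3, a core subunit of the matrix arm, measured 189, 187 and 208 CPM in SC10, 195, 183 and 192 CPM in SC07 and 102, 105 and 108 CPM in SC01. Both clones lay far above SC01 and overlapped with each other, with changes of 0.89 ± 0.05 and 0.85 ± 0.05 against SC01 and 0.04 ± 0.05 between them (adjusted p = 0.561, edgeR). NDUFS7, which carries the last cluster before ubiquinone, measured 77.0, 67.3 and 80.7 CPM in SC10, 86.0, 83.5 and 95.1 CPM in SC07 and 64.9, 72.2 and 69.1 CPM in SC01. Of its coding bases 48.5% overlap genes on the opposite strand, as given above. SC07 stood clear of SC01, by 0.36 ± 0.06, SC10 overlapped with SC01, and SC10 lay below SC07 by a log2 change of -0.23 ± 0.06, while SC10 against SC01 gave 0.13 ± 0.06 (adjusted p = 0.0874, edgeR), which was called without SC10 replicate 2 or SC01 replicate 2 (adjusted p = 0.00402 and 0.0475, edgeR). NDUFV2, with the few counts given above, measured 0.681, 0.623 and 0.65 CPM in SC10, 1.22, 0.516 and 1.25 CPM in SC07 and 0.439, 0.632 and 0.569 CPM in SC01. Its SC07 libraries spanned those of SC10 and overlapped with those of SC01. The call in SC07 against SC01 (0.85 ± 0.34, adjusted p = 0.0307, edgeR) was lost without SC07 replicate 1 or 3 or SC01 replicate 1 or 3 (adjusted p = 0.0582 to 0.151, edgeR). Without SC07 replicate 2, NDUFV2 was called lower in SC10 than in SC07 (adjusted p = 0.0161, edgeR).

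**Figure D3:**
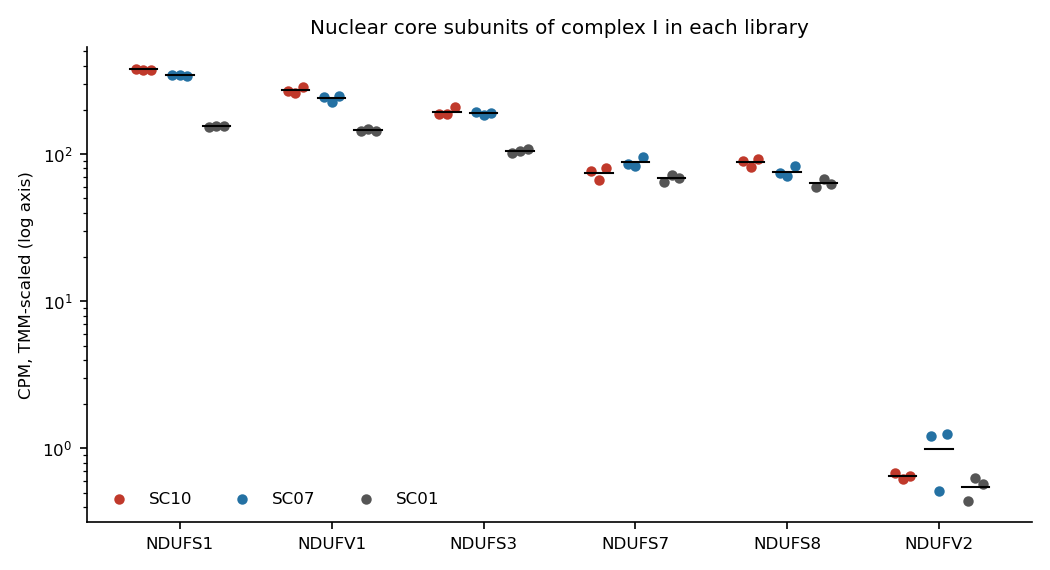
TMM-scaled CPM (log axis) of 6 nuclear core subunits in each library of SC10 (red), SC07 (blue) and SC01 (grey); bars are clone means, n = 3. SC01 lies lowest for NDUFS1, NDUFV1 and NDUFS3, and NDUFV2 lies at 1.25 CPM or below in all clones.

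Among the 9 accessory subunits of the matrix arm, 7 were higher and none lower in SC10 against SC01 (median 0.32), 6 were higher and none lower in SC07 against SC01 (median 0.26), and 3 were higher and 3 lower in SC10 against SC07 (median 0.00). The shares of all genes were 33.5% higher and 32.4% lower, 31.5% and 30.5%, and 24.8% and 23.0% in these comparisons in turn. NDUFS4 (ENSG00000164258, chromosome 5, 53560633 to 53683340, plus strand), a subunit of the NADH-binding tip whose loss causes Leigh syndrome, measured 41.0, 37.0 and 45.5 CPM in SC10, 27.8, 27.6 and 26.1 CPM in SC07 and 26.9, 23.3 and 28.1 CPM in SC01. SC10 stood clear of both other clones, which overlapped with each other. Its change was 0.66 ± 0.07 in SC10 against SC01 and 0.60 ± 0.07 in SC10 against SC07, the largest of any subunit called in the last comparison (adjusted p = 2.21e-08 and 2.25e-07, edgeR), and 0.06 ± 0.08 in SC07 against SC01. NDUFA2, a subunit with a thioredoxin-like fold, had the same pattern at 38.3, 34.5 and 42.7 CPM in SC10, 32.0, 30.7 and 33.1 CPM in SC07 and 29.8, 28.9 and 32.6 CPM in SC01. The changes of NDUFA2 were 0.34 ± 0.07 in SC10 against SC01, 0.27 ± 0.07 in SC10 against SC07 and 0.07 ± 0.07 in SC07 against SC01, the last not called. NDUFA6, an LYR-motif protein that holds an acyl carrier protein, measured 107, 109 and 125 CPM in SC10, 93.3, 93.2 and 95.4 CPM in SC07 and 68.5, 66.2 and 75.7 CPM in SC01. Its clones stood apart in the order SC10, SC07, SC01, with changes of 0.69 ± 0.06, 0.42 ± 0.06 and, for SC10 against SC07, 0.27 ± 0.06.

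NDUFA9 (ENSG00000139180, chromosome 12, 4649095 to 4694317, plus strand), which binds NADPH near the ubiquinone site, measured 21.6, 21.5 and 23.7 CPM in SC10, 29.5, 28.0 and 28.8 CPM in SC07 and 18.2, 18.9 and 19.6 CPM in SC01. Here SC07 was highest and SC01 lowest with no overlap, and the log2 change was 0.24 ± 0.07 in SC10 against SC01, 0.61 ± 0.06 in SC07 against SC01 and -0.37 ± 0.06 in SC10 against SC07 (adjusted p = 0.00266, 4.25e-09 and 2.17e-05, edgeR). NDUFA12, on the same chromosome, changed by 0.20 ± 0.05, 0.57 ± 0.05 and -0.37 ± 0.05 in those comparisons. With scaling by library totals alone, NDUFA9 and NDUFA12 were no longer called in SC10 against SC01, nor NDUFA5 and NDUFS6 in SC07 against SC01. NDUFV3 and NDUFS6 were higher in both clones than in SC01, with changes of 0.36 and 0.35 for NDUFV3 and of 0.32 and 0.24 for NDUFS6 in SC10 and SC07, and neither was called between SC10 and SC07. NDUFA5 was higher in SC07 than in SC01 (0.26 ± 0.06), and its lower value in SC10 than in SC07 (-0.15 ± 0.06) lost its call without any 1 of 7 of the 9 libraries (adjusted p = 0.0487 with all, 0.0651 to 0.233 without, edgeR). NDUFA7 was called in no comparison, with changes of -0.55 ± 0.28, -0.37 ± 0.27 and -0.18 ± 0.28.

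The 9 accessory subunits of the proximal membrane arm were higher in 7 cases in SC10 against SC01 (median 0.38) and in 8 in SC07 against SC01 (median 0.58), with none lower, and in SC10 against SC07 1 was higher and 3 were lower (median -0.07). All genes tested were higher in 33.5% and lower in 32.4%, in 31.5% and 30.5%, and in 24.8% and 23.0% of cases in turn. NDUFA3 (ENSG00000170906, chromosome 19, 54102728 to 54109257, plus strand), a small membrane subunit, measured 96.0, 94.4 and 105 CPM in SC10, 88.0, 87.2 and 89.0 CPM in SC07 and 44.2, 43.9 and 45.8 CPM in SC01. The 3 clones did not overlap, and the log2 change was 1.14 ± 0.05 in SC10 against SC01, 0.98 ± 0.05 in SC07 against SC01 and 0.16 ± 0.05 in SC10 against SC07 (adjusted p = 1.72e-17, 5.62e-16 and 0.00672, edgeR). NDUFC1 (ENSG00000109390, chromosome 4, 139266880 to 139302551, minus strand), another small membrane subunit, measured 61.3, 61.1 and 67.9 CPM in SC10, 71.2, 68.5 and 70.7 CPM in SC07 and 31.2, 32.7 and 31.3 CPM in SC01. Of its exon bases 18.5% overlap MGARP on the same strand. SC10 and SC07 lay far above SC01, with changes of 1.0 ± 0.05 and 1.14 ± 0.05 against SC01, and the lower value in SC10 than in SC07 (-0.14 ± 0.05) lost its call without SC07 replicate 1 or 3 or SC10 replicate 1 or 2 (adjusted p = 0.0533 to 0.123, edgeR). NDUFA8, which lies in the space between the membranes, and NDUFA1 changed by 0.81 and 0.66 in SC10 and by 0.74 and 0.66 in SC07 against SC01. The other called members of the proximal group, NDUFA10, NDUFA13 and NDUFC2 in both clones and NDUFA11 in SC07, had changes between 0.20 and 0.58. The call of NDUFC2 in SC07 was lost without SC07 replicate 3 or without SC01 replicate 1 or 3 (adjusted p = 0.0759 to 0.155, edgeR). With scaling by library totals alone, NDUFA13 in SC10 and NDUFA11 and NDUFC2 in SC07 lost their calls against SC01. NDUFS5, the member with the highest level, ranged over 128 to 157 CPM in SC10, 138 to 151 CPM in SC07 and 141 to 151 CPM in SC01, all overlapping, and passed in no comparison with all libraries.

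Of the 11 accessory subunits of the distal membrane arm, 9 were higher and 1 lower in SC10 against SC01 (median 0.62), 11 were higher in SC07 against SC01 (median 0.56), and 4 were higher and 3 lower in SC10 against SC07 (median 0.06). Over all genes tested, 33.5% were higher and 32.4% lower, 31.5% and 30.5%, and 24.8% and 23.0% in these comparisons in turn. NDUFB9 (ENSG00000147684, chromosome 8, 124539101 to 124580648, plus strand), an LYR-motif protein that holds an acyl carrier protein, measured 256, 247 and 291 CPM in SC10, 226, 217 and 226 CPM in SC07 and 94.0, 94.3 and 96.8 CPM in SC01. The clones did not overlap, with SC10 highest and SC01 far below both. Its change was 1.48 ± 0.05 in SC10 against SC01 and 1.23 ± 0.05 in SC07 against SC01, the largest of the subunits in each (adjusted p = 1.23e-19 and 6.99e-18, edgeR), and 0.25 ± 0.05 in SC10 against SC07 (adjusted p = 0.000153, edgeR). Part of its exons overlaps TATDN1 on the opposite strand, and whether counting used strand is not given in the sources used here. NDUFB3 (ENSG00000119013, chromosome 2, 201071433 to 201085750, plus strand), a small membrane subunit, measured 82.0, 80.5 and 91.1 CPM in SC10, 73.4, 74.5 and 72.7 CPM in SC07 and 38.7, 37.7 and 40.3 CPM in SC01. Again the clones stood apart in the order SC10, SC07, SC01, with changes of 1.12 ± 0.05, 0.92 ± 0.05 and 0.20 ± 0.05.

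NDUFB5 and NDUFB8, single-span membrane subunits, had the same order with smaller steps. NDUFB5 measured 158, 152 and 179 CPM in SC10, 149.6, 141 and 148 CPM in SC07 and 96.7, 101 and 98.9 CPM in SC01, and NDUFB8 measured 34.4, 34.7 and 36.8 CPM in SC10, 31.8, 30.5 and 31.7 CPM in SC07 and 20.5, 22.8 and 23.1 CPM in SC01. No libraries of different clones overlapped for either gene, and NDUFB8 is one of the genes whose level is uncertain. The changes of NDUFB5 were 0.72 ± 0.05 and 0.56 ± 0.05 against SC01 and 0.16 ± 0.05 between SC10 and SC07, and those of NDUFB8 were 0.68 ± 0.06, 0.51 ± 0.06 and 0.17 ± 0.06. Between SC10 and SC07 both calls were lost without SC07 replicate 2 (adjusted p = 0.0645 and 0.0724, edgeR). NDUFB2 (ENSG00000090266, chromosome 7, 140690777 to 140722790, plus strand) was the subunit lower in SC10 than in SC01, at 88.2, 83.5 and 91.6 CPM in SC10, 115, 111 and 121 CPM in SC07 and 97.5, 96.7 and 102 CPM in SC01. SC10 lay lowest and SC07 highest with no overlap between any clones, and the log2 change was -0.17 ± 0.05 in SC10 against SC01, 0.23 ± 0.05 in SC07 against SC01 and -0.40 ± 0.05 in SC10 against SC07 (adjusted p = 0.00315, 0.00012 and 7.35e-08, edgeR). Its exons overlap ADCK2 on the same strand, outside its coding bases, and BRAF and NDUFB2-AS1 on the opposite strand. Reads of the opposite-strand genes cannot be told apart from its own without a strand setting, and those shared with ADCK2 not by strand at all. NDUFB7 was higher in SC07 than in SC01 (0.30 ± 0.05) and lower in SC10 than in SC07 (-0.34 ± 0.05), while SC10 against SC01 gave -0.04 ± 0.05 (adjusted p = 0.524, edgeR). The other 5 distal subunits, NDUFB1, NDUFB4, NDUFB6, NDUFB10 and NDUFB11, were higher in both clones, by 0.17 to 0.75 in SC10 and by 0.26 to 0.65 in SC07. For NDUFB6 the call in SC10 was lost without SC10 replicate 3 or SC01 replicate 2 (adjusted p = 0.0558 and 0.0698, edgeR), and with scaling by library totals alone NDUFB6 and NDUFB11 were not called in SC10. NDUFAB1, the acyl carrier protein present in both arms, was higher in SC07 than in SC01 (0.29 ± 0.05) and lower in SC10 than in SC07 (-0.22 ± 0.05), with 0.07 ± 0.05 in SC10 against SC01.

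Between SC10 and SC07 each group of subunits held members that were higher and members that were lower. The 11 that were higher in SC10 came from all 4 groups (3 core, 3 matrix, 1 proximal and 4 distal), as did the 12 that were lower (2 core, 3 matrix, 3 proximal and 3 distal, and NDUFAB1). The changes called ran from -0.40 for NDUFB2 to 0.60 for NDUFS4, and 14 subunits were not called. Here 24.8% of all genes were higher and 23.0% lower. In the edgeR test against a minimum change of 1.5-fold, no subunit passed in this comparison, where 5.51% of all genes were higher and 2.50% lower. Under the same test, 12 subunits were higher and none lower in SC10 against SC01, where 13.7% of all genes were higher and 9.53% lower. In SC07 against SC01 it called 9 subunits higher and none lower, where 11.0% of all genes were higher and 9.58% lower. The count of lower subunits ran from 8 without SC10 replicate 2 to 16 without SC10 replicate 3, and that of higher ones from 9 without SC07 replicate 2 to 13 without SC10 replicate 2. Without SC10 replicate 3, NDUFS5, NDUFB4, NDUFA1 and NDUFB6 joined the lower subunits (adjusted p = 0.00188 to 0.0316, edgeR).

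**Figure D4:**
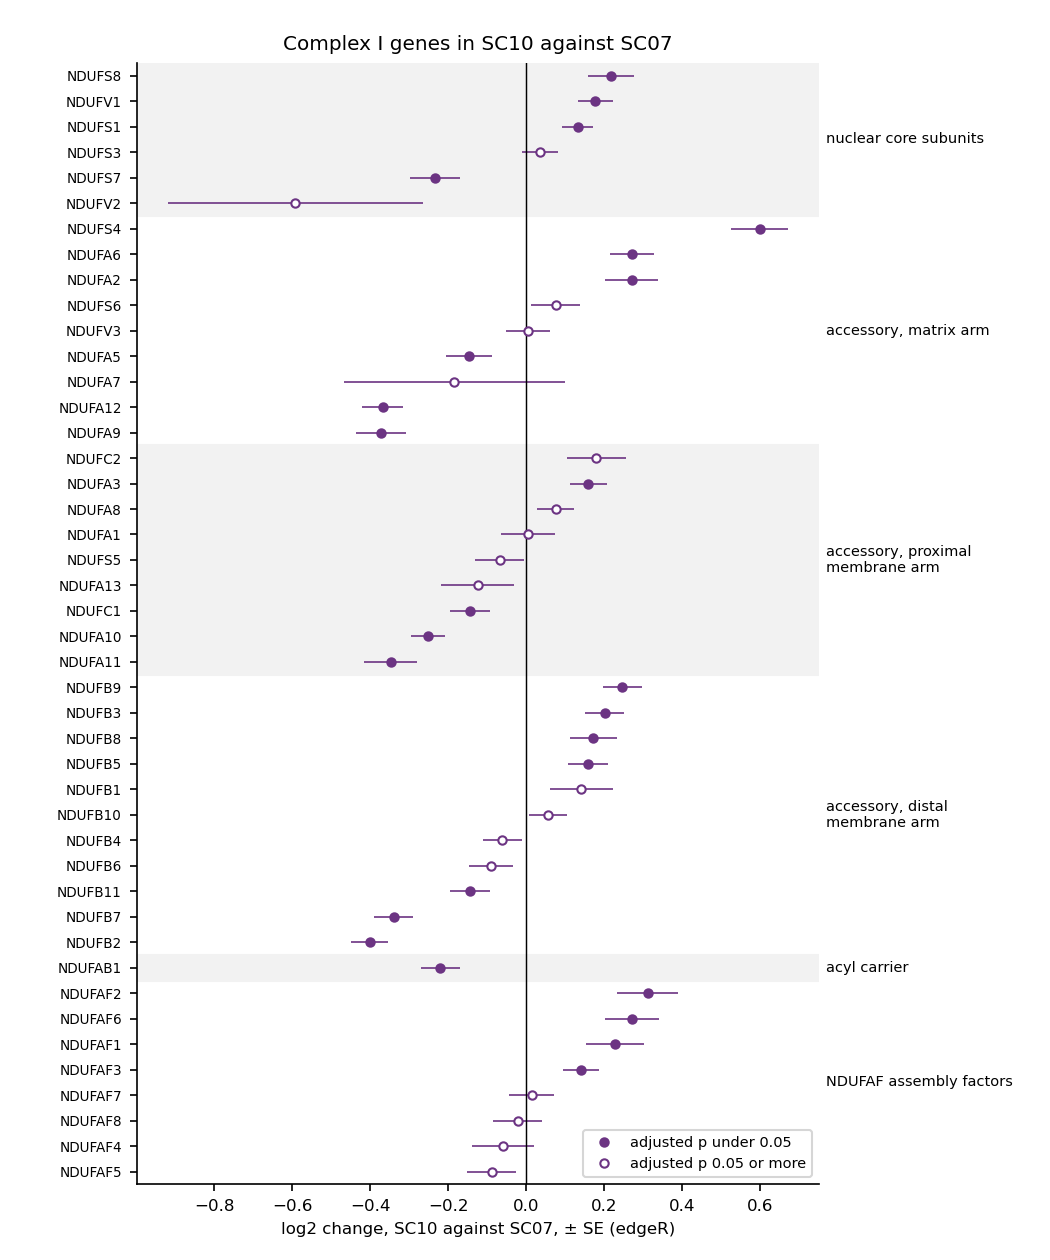
Log2 change ± SE (edgeR) in SC10 against SC07 of 36 nuclear subunits and 8 assembly factors of complex I, by part of the complex; filled points have an adjusted p under 0.05. Subunits lie on both sides of 0, from -0.40 for NDUFB2 to 0.60 for NDUFS4 among those called, and the 4 called assembly factors lie to the right.

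Most of the 8 NDUFAF assembly factors were higher in SC10 and in SC07 than in SC01, and none was called lower in SC10 than in either other clone. In SC10 against SC01 5 were higher and none lower (median 0.36), and in SC07 against SC01 6 were higher and 1 lower (median 0.24). In SC10 against SC07 4 were higher and none lower (median 0.08). Of all genes, 33.5% were higher and 32.4% lower, 31.5% and 30.5%, and 24.8% and 23.0% in these comparisons in turn. NDUFAF1, a member of the complex that builds the membrane arm, measured 30.6, 26.8 and 33.2 CPM in SC10, 27.8, 25.0 and 24.6 CPM in SC07 and 18.2, 16.1 and 16.7 CPM in SC01. Both clones stood above SC01, with changes of 0.83 ± 0.08 in SC10 and 0.60 ± 0.08 in SC07 (adjusted p = 2.56e-10 and 1.34e-07, edgeR), the largest among the factors. The step between SC10 and SC07 (0.23 ± 0.07), whose libraries overlapped, lost its call without SC07 replicate 2 or 3 or SC10 replicate 3 (adjusted p = 0.0566 to 0.0633, edgeR). NDUFAF6 (ENSG00000156170, chromosome 8, 94895767 to 95116455, plus strand), needed early in assembly, measured 22.7, 22.3 and 23.6 CPM in SC10, 19.2, 17.9 and 19.7 CPM in SC07 and 16.6, 16.2 and 14.8 CPM in SC01, with no overlap between clones. Its changes were 0.53 ± 0.07 in SC10 and 0.25 ± 0.07 in SC07 against SC01 and 0.27 ± 0.07 in SC10 against SC07. NDUFAF3, which acts with NDUFAF4 on the ubiquinone-binding module, measured 120.4, 115 and 117 CPM in SC10, 105, 103 and 112 CPM in SC07 and 91.5, 97.9 and 97.5 CPM in SC01. The clones did not overlap, and the changes were 0.30 ± 0.05, 0.16 ± 0.05 and 0.14 ± 0.05 in that order. The last was lost without SC07 replicate 1 or 2 (adjusted p = 0.0515 and 0.0719, edgeR), and that in SC07 against SC01 without SC01 replicate 1 (adjusted p = 0.0518, edgeR).

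NDUFAF2 (ENSG00000164182, chromosome 5, 60945129 to 61153037, plus strand), a paralogue of NDUFA12 that takes its place during assembly, measured 20.4, 19.2 and 23.3 CPM in SC10, 16.3, 16.5 and 17.9 CPM in SC07 and 20.2, 21.2 and 23.0 CPM in SC01. SC07 lay below both other clones, which overlapped, so NDUFAF2 was lower in SC07 than in SC01 (-0.34 ± 0.08, adjusted p = 0.000349, edgeR) and higher in SC10 than in SC07 (0.31 ± 0.08, adjusted p = 0.00144, edgeR). In SC10 against SC01 its change was -0.03 ± 0.08 (adjusted p = 0.727, edgeR). NDUFAF5, which hydroxylates NDUFS7, measured 25.3, 24.3 and 26.6 CPM in SC10, 27.4, 26.5 and 27.0 CPM in SC07 and 18.4, 20.3 and 18.4 CPM in SC01, and NDUFAF7, a methyltransferase, measured 36.6, 34.6 and 36.8 CPM in SC10, 36.3, 37.0 and 33.7 CPM in SC07 and 25.0, 25.1 and 25.4 CPM in SC01. For both genes SC10 and SC07 overlapped with each other and lay above SC01. Against SC01, NDUFAF5 changed by 0.42 ± 0.07 in SC10 and 0.50 ± 0.07 in SC07, and NDUFAF7 by 0.52 ± 0.06 and 0.50 ± 0.06. NDUFAF4 measured 18.9, 20.2 and 23.1 CPM in SC10, 24.1, 20.1 and 20.7 CPM in SC07 and 17.9, 18.5 and 18.7 CPM in SC01, with SC10 and SC07 above SC01 by small margins. Only SC07 against SC01 was called for NDUFAF4 (0.23 ± 0.08), and this was lost without SC07 replicate 1 or SC01 replicate 1 (adjusted p = 0.143 and 0.0566, edgeR). SC10 against SC01 gave 0.17 ± 0.08 (adjusted p = 0.0566, edgeR) and was called without SC10 replicate 1 or SC07 replicate 1 or 2 (adjusted p = 0.0165 to 0.0457, edgeR). NDUFAF8, the partner of NDUFAF5, had changes between -0.03 and -0.01 and was called in no comparison. With scaling by library totals alone, NDUFAF3, NDUFAF4 and NDUFAF6 were not called in SC07 against SC01.

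Of 11 further assembly factors without the NDUF name, 6 were higher and 1 lower in SC10 against SC01 (median 0.21). In SC07 against SC01 5 were higher and 2 lower (median 0.09), and in SC10 against SC07 4 were higher and none lower (median 0.00). Of all genes, 33.5% were higher and 32.4% lower, 31.5% and 30.5%, and 24.8% and 23.0% in these comparisons in turn. FOXRED1, an oxidoreductase-like factor, measured 42.4, 43.4 and 44.5 CPM in SC10, 34.6, 35.8 and 35.8 CPM in SC07 and 25.4, 23.1 and 23.6 CPM in SC01, with changes of 0.85 ± 0.06 in SC10 and 0.56 ± 0.06 in SC07 against SC01. ECSIT, a partner of NDUFAF1, measured 92.6, 85.6 and 93.7 CPM in SC10, 96.0, 92.0 and 104 CPM in SC07 and 53.9, 55.2 and 56.4 CPM in SC01, with changes of 0.72 ± 0.05 and 0.82 ± 0.05. SC01 was lowest for both genes, without overlap. TMEM126B, which works in the same assembly complex as NDUFAF1, measured 40.5, 41.8 and 47.2 CPM in SC10, 30.3, 29.98 and 27.7 CPM in SC07 and 33.6, 33.0 and 33.7 CPM in SC01. SC10 was highest and SC07 lowest, with 0.37 ± 0.06 in SC10 against SC01, -0.19 ± 0.06 in SC07 against SC01 and 0.56 ± 0.06 in SC10 against SC07 (adjusted p = 6.08e-06, 0.00937 and 1.67e-08, edgeR). TMEM70 changed by 0.81 ± 0.06 in SC10 and 0.66 ± 0.06 in SC07 against SC01. ACAD9, a flavoprotein of that complex, was called in no comparison.

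The 7 core subunits encoded in the mitochondrial genome were all higher in SC10 than in SC01 (median log2 change 0.74). All were also higher in SC07 than in SC01 (median 0.61), and 3 were higher in SC10 than in SC07. Of all genes, 33.5%, 31.5% and 24.8% were higher in these comparisons in turn. MT-ND1, which forms the entry of the ubiquinone channel, measured 4023, 4181 and 4015 CPM in SC10, 3630.3, 3706 and 3665 CPM in SC07 and 1759, 1801 and 1706 CPM in SC01. SC01 lay far below both others, with changes of 1.21 ± 0.04 in SC10 and 1.06 ± 0.04 in SC07 (adjusted p = 3.70e-20 and 6.52e-19, edgeR). Together the 7 transcripts took 3.72%, 3.77% and 3.36% of counts in SC10, 3.29%, 3.45% and 3.30% in SC07 and 2.32%, 2.33% and 2.26% in SC01. The third SC10 library thus had the lowest share of these transcripts in its clone, while it had the highest share of the nuclear subunits, at 0.408%, against 0.371% and 0.365%. All 13 mRNAs of the mitochondrial genome, these 7 included, took 9.42% to 9.89% in SC10, 8.52% to 8.96% in SC07 and 6.35% to 6.46% in SC01. The order of the clones was thus not particular to the complex I transcripts. Mitochondrial rRNA took 1.03% to 1.09% of counts in SC10, 0.976% to 1.03% in SC07 and 0.521% to 0.551% in SC01, and its part in these differences was not tested. Without a strand setting, reads of MT-ND6 cannot be told apart from antisense reads of its neighbours.

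Of 11 tested regulators of respiratory genes, 5 were higher and 5 lower in SC10 against SC01 (median -0.07). In SC07 against SC01 4 were higher and 6 lower (median -0.18). Of all genes, 33.5% were higher and 32.4% lower in the first comparison, and 31.5% and 30.5% in the second. PPARGC1A, which encodes PGC-1alpha, measured 451, 456 and 393 CPM in SC10, 473, 469.9 and 461 CPM in SC07 and 30.4, 31.0 and 29.1 CPM in SC01, so that both clones lay far above SC01 (3.84 ± 0.06 in SC10 and 3.96 ± 0.06 in SC07). PPARGC1B, its paralogue, lay lower than in SC01 in both, with changes of -1.10 ± 0.08 and -1.04 ± 0.08. ESRRA, the orphan receptor that works with PGC-1alpha, measured 123, 120.3 and 124 CPM in SC10, 99.0, 97.1 and 106 CPM in SC07 and 52.9, 59.0 and 60.1 CPM in SC01, and its changes were 1.10 ± 0.05 and 0.81 ± 0.05. ESRRG, a related receptor, held 12, 9 and 12 counts in SC10, 50, 60 and 64 in SC07 and 1, 0 and 6 in SC01. NRF1, named for its motif letters above after its values were seen, was lower in both clones than in SC01, with changes of -0.46 ± 0.07 and -0.39 ± 0.07.

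Members were also set beside the genes around them, taking for each the median log2 change of all other tested genes within 5 Mb, which were 19 to 282 genes. In SC10 against SC07, the change of a member rose with that of its neighbourhood, with a Pearson r of 0.75 and a Spearman rho of 0.73 over 46 members. For 15 members the surrounding median lay at least 0.2 from 0, and all 15 had its sign, 12 of them past the threshold. The same count was 12 of 18 with the sign of the surroundings, 10 past the threshold, in SC10 against SC01. It was 7 of 12, all 7 past it, in SC07 against SC01. Of all genes tested, 47.9%, 65.9% and 62.0% were called in these comparisons in turn. Neither the counts nor the correlations were computed for genes outside the members, so they are not shown to be particular to complex I. NDUFS4 changed by 0.60 with a surrounding median of 0.45, NDUFA9 by -0.37 with -0.46, and NDUFA2 by 0.27 with 0.38. NDUFS4 and NDUFAF2, which lie on the same chromosome, had a higher SC10 value within a raised neighbourhood (0.30 around NDUFAF2). NDUFB2 and NDUFB7, both lower in SC10, changed by -0.40 and -0.34 with surrounding medians of -0.12 and -0.06. In the comparisons with SC01 the Pearson r and Spearman rho over the 46 members were 0.49 and 0.38 for SC10 and 0.50 and 0.33 for SC07. There the subunits lay above their surroundings, in 33 of 37 cases in SC10 and 36 of 37 in SC07, with a median excess of 0.52 and 0.54, against 10 of 37 and -0.08 in SC10 against SC07. NDUFB9 exceeded a surrounding median of 0.52 in SC10 and 0.21 in SC07, and NDUFA3 one of -0.17 and -0.02. The correlations describe these genes only, since members of a region share neighbours and all share the same libraries, and the part of the neighbourhood in the members' changes was not tested.

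**Figure D5:**
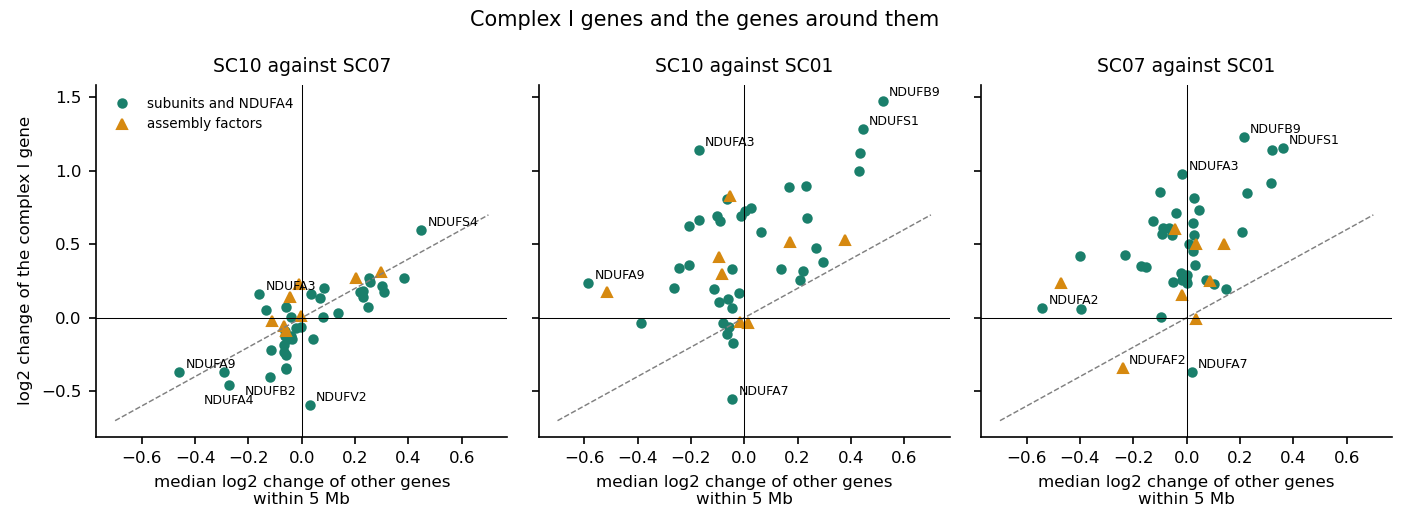
Log2 change of 46 members (vertical) against the median log2 change of the other tested genes within 5 Mb (horizontal) in the 3 comparisons; circles are subunits and NDUFA4, triangles assembly factors, and the dashed line marks equal values. Points rise from left to right in SC10 against SC07 (r = 0.75), with 10 of 37 subunits above the line, and lie mostly above it in both comparisons with SC01.

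NDUFA4, which bears the family name but is now placed in complex IV, ranged over 249 to 279.8 CPM in SC10, 351 to 364 CPM in SC07 and 258 to 282 CPM in SC01. SC07 stood above both other clones, which overlapped, with 0.42 ± 0.05 in SC07 against SC01 and -0.46 ± 0.05 in SC10 against SC07 (adjusted p = 8.01e-09 and 5.03e-09, edgeR), and -0.03 ± 0.05 in SC10 against SC01. The medians of genes around it were -0.23, -0.27 and -0.39 in these comparisons. Its relative NDUFA4L2, a target of hypoxia-inducible factor, stayed at 1 to 6 counts per library in all clones.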

How the data were processed

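RNA-seq read counts per gene were deposited by the authors as raw counts for 9 libraries of 3 untreated clones. HISAT2, featureCounts and GRCh38 are named in the submitters' processing notes. Per the labels' protocols, total RNA was extracted with Trizol. Tool versions, the annotation used for counting, its strand setting and its handling of shared reads: not given in the sources used here. Names came from GENCODE 29, which matched 57055 of the Ensembl IDs and left 3620 without a name.

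The deposited counts were tested with edgeR 4.0.16 in R 4.3.3 (TMM, filterByExpr, robust quasi-likelihood fit of all 9 libraries), with Benjamini-Hochberg adjustment over 18009 genes and a threshold of 0.05. The fit was tested on simulated data. Two-sided tests were used throughout. Alternatives used DESeq2 1.42.0, limma 3.58.1, other scalings and filters, a replicate block, a 1.5-fold minimum change and each library left out. The standard error is the log2 change divided by the square root of F. Promoter windows came from RefSeq, with motifs searched on both strands. Counts and medians cover all subunits, and the values of 1 are not reported here. Values of every library are given for the other core subunits, for the 3 subunits of largest change in each comparison, for subunits called against the majority and for called NDUFAF factors, and other genes are given by ranges. The members and lists were chosen with earlier results of these data known.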

Additional observations from a re-analysis of the deposited data

How the results depend on the processing

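Against a minimum change of 1.5-fold, 0 subunits were higher and 0 lower in SC10 against SC07, with 0 assembly factors higher; 12 subunits were higher and 0 lower in SC10 against SC01, with 1 assembly factor higher; and 9 subunits were higher in SC07 against SC01, with 0 assembly factors higher and 0 lower. Of all genes, that test called 5.51% higher and 2.50% lower, 13.7% and 9.53%, and 11.0% and 9.58% in these comparisons in turn. A stricter hypothesis is tested there, so fewer calls follow from its construction. With scaling by library totals alone, the median of all genes moved to -0.12 in both comparisons with SC01. SC10 against SC01 then had 5 lower subunits, a subunit median of 0.27 and an assembly factor median of 0.24, and SC07 against SC01 had a subunit median of 0.40, 3 higher assembly factors and an assembly factor median of 0.14. With at least 1 CPM in 3 libraries required, the subunit median in SC07 against SC01 was 0.46, over fewer subunits. Leaving out each library in turn, SC10 against SC07 gave 9 to 13 higher and 8 to 16 lower subunits (median -0.10 to 0.05) and 2 to 4 higher assembly factors, with 2 without SC07 replicate 2. SC10 against SC01 gave 27 to 29 higher and 1 to 3 lower subunits (median 0.31 to 0.45) and 5 to 6 higher assembly factors (median 0.33 to 0.39). SC07 against SC01 gave 31 to 33 higher subunits (median 0.45 to 0.53), 4 to 6 higher assembly factors (4 without SC01 replicate 1) and 1 lower (median 0.20 to 0.30). NDUFA1 in SC10 against SC07 (0.01 with all libraries) ranged from -0.10, a reversal without SC10 replicate 3, to 0.083 without SC10 replicate 1, and the cause was not tested. With the replicate number as a block, 12 subunits were higher and 11 lower in SC10 against SC07 (median 0.00). The block left the counts of the other comparisons at 28 and 1, and 33 and 0. Same-numbered libraries did not deviate together (correlations of -0.0195 to 0.0429), and 5 of 9 libraries correlated best with their own number. Of 2757 values of single members under alternatives, 2590 kept direction and side of the threshold, 140 lost the call, 26 gained one and 1 reversed. The 1.5-fold test is among these alternatives. It accounts for 28 of the lost calls in SC10 against SC07, 21 in SC10 against SC01 and 32 in SC07 against SC01. NDUFV2 and NDUFA7, with at most 48 counts per library, are the tested members with the fewest counts; what sets their level was not tested.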
